A study of Ovis aries with 12 samples.

Results

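The ovary and the endometrium run different sets of genes, and a small set of genes was abundant in one and barely seen in the other. Of the 24616 gene identifiers counted, 33 reached 10 CPM (the count scaled to a library total of 1e6) or more in all 6 libraries of the group named Co while staying under 1 CPM in all 6 libraries of the group named T. The 33 genes were chosen by these levels, so the difference between Co and T describes how they were picked and is no finding. They were 0.443% of the 7446 genes at 10 CPM or more in every Co library. The reverse choice, 10 CPM or more in every T library and under 1 CPM in every Co library, gave 54 genes, which were 0.601% of 8981.

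RNA was sequenced from flash-frozen sheep tissue in 12 libraries, 3 for each of Co-L and Co-H and 3 for each of T-L and T-H. The letter L marks low and the letter H high fertility. The T libraries carry the tissue label endometrium, 5 of the Co libraries the label ovary, and Co-H 3 the label corpus luteum, while the column headers name all Co libraries CL. Breed, age, cycle day and treatment are not stated in the sources used here, nor is the meaning of the letters Co and T. The design text mentions pooled samples and nothing states that replicate libraries are from separate animals, so a p-value here measures no more than the spread among these libraries, which may be technical. In bulk tissue, fewer cells of a type and less RNA per cell cannot be told apart.

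The ovary holds follicles, each an oocyte with its granulosa and theca cells, and after ovulation the emptied follicle turns into a corpus luteum. Granulosa, theca and luteal cells make steroid hormones, and the corpus luteum is the source of the progesterone that readies the uterus for an embryo. The endometrium is made of glands, surface epithelium and stroma, which answer those hormones rather than make them. Between these tissues, genes for steroid synthesis, gonadotropin receptors and oocyte functions are mainly active in the ovary. Whether the 33 genes are of this kind was not analysed here: the files list cattle gene identifiers without names, and 0 of the 24616 identifiers matched the sheep gene table. The tissue labels could not be checked against marker genes for the same reason, no sequence could be shown, and genes are given by identifier and by their rank in abundance.

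Total counts were 12665680 to 17852552 per Co library and 9627378 to 13934369 per T library. The trimmed mean of M values (TMM), which sets libraries on a common scale, gave factors of 0.745 to 0.864 in the Co-L libraries and Co-H 1, 0.977 in Co-H 2 and 1.00 in Co-H 3. Co-L 3 stood apart from the other Co libraries: of the 7446 genes at 10 CPM or more in every Co library, 4.02% were 2-fold or more from their own median over Co in this library, against 0.604% to 2.81% in the others. Levels are given as CPM on the library total where the rule is concerned, and as TMM-scaled CPM where libraries are compared.

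One gene dominated the set. ENSBTAG00000006769 had a median of 5082 CPM over the Co libraries, 11.3 times the median of the next gene, ENSBTAG00000008026, at 450.3 CPM. It ranked 11th in Co-H 2 and Co-H 3, 18th in Co-L 2 and Co-H 1, 19th in Co-L 1 and 36th in Co-L 3 among all genes of the library. Of the set, 9 of the 33 genes had a median of 100 CPM or more, 21 had 20 to under 100 CPM, and 3 had under 20 CPM. The median over the 33 genes was 58.6 CPM, against 40.7 CPM over the 7446 genes at 10 CPM or more in every Co library. The lowest median was 12.9 CPM, in ENSBTAG00000032656.

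**Figure D1:**
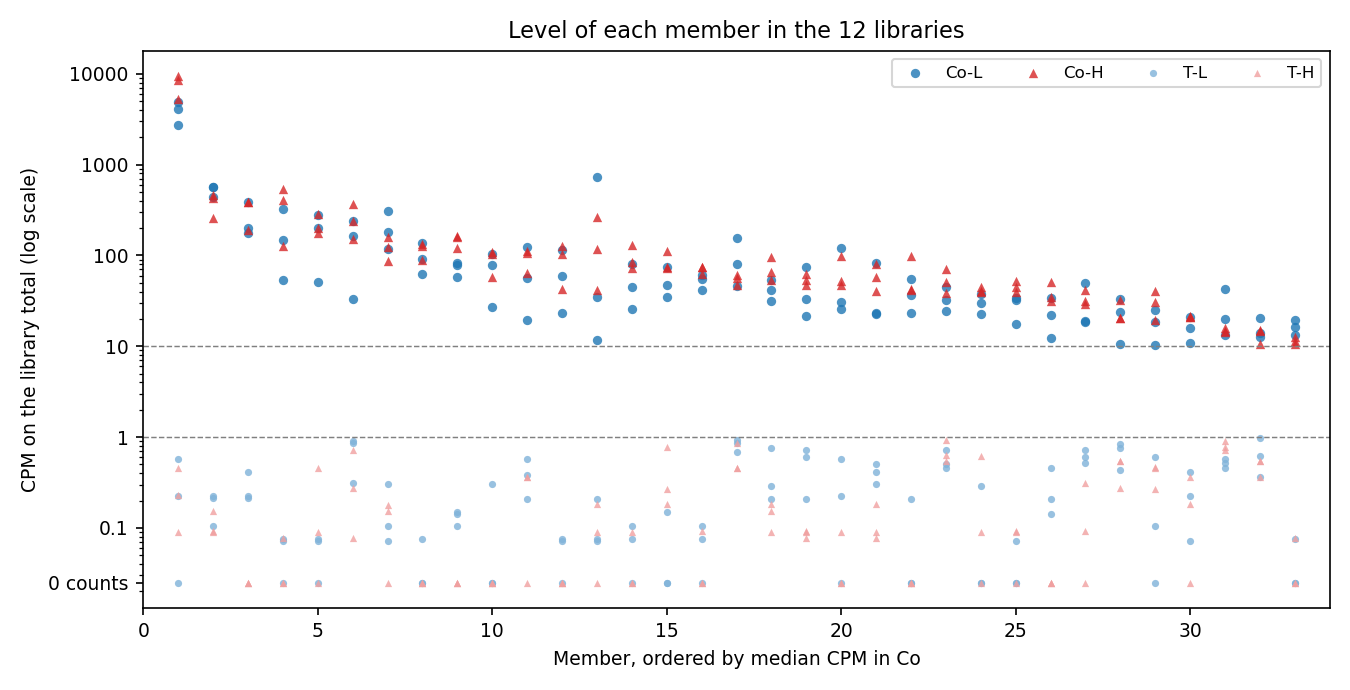
CPM on the library total (log scale) of each of the 33 genes, ordered by median CPM in Co, in the 12 libraries. Circles are low-fertility and triangles high-fertility libraries, dark colours Co and pale colours T, dashed lines the limits of 10 and 1 CPM, and libraries without a count sit at the bottom tick. The most abundant gene stands far above the second, and the 13th gene has the widest spread in Co.

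Genes near the limits differed little from those just beyond them. At the Co limit the nearest genes inside had 10.4 and 10.6 CPM in their lowest Co library, and the nearest outside had 9.53 and 9.40 CPM. At the T limit the nearest inside had 0.983 and 0.935 CPM in their highest T library, and the nearest outside had 1.00 and 1.13 CPM. With a T limit of 0.5 CPM the set held 17 genes.

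Traces of the set were counted in T. All 33 genes together had 560 counts over the 6 T libraries, and 61 of the 198 values of a gene in a T library were 0. Every gene had at least 1 count in T, with a median of 12 counts and a highest value of 51. For the 25 genes with more than 3 counts in T, the pooled CPM in Co was 25.5 to 21134 times that in T, with a median of 220. The other 8 had 1 to 3 counts. ENSBTAG00000006769 marked the upper end, at 21134-fold, with an exact Poisson 95% interval of 13684 to 34599 from its 20 counts in T, which covers counting error only.

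Within the limits of the rule, no clear relation was seen between the level of a gene in T and its level in Co. The 33 genes are not independent replicates. Across them, the pooled levels in the tissues had a Pearson's r of −0.10 on a log10 scale and a Spearman's rho of −0.27. These are descriptions. The limits of the rule narrow the range of both levels, and the levels in T rest on a median of 12 counts per gene. The 5 most abundant genes in Co had a median of 0.139 CPM in T, and the 5 least abundant had 0.320 CPM. As a percentage of the level in Co, the level in T ran from 0.00473% to 3.92%.

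In Co the set took a larger share of the counts at high fertility. Its share was 0.707%, 0.738% and 0.587% in Co-L 1 to 3, and 0.905%, 1.24% and 1.16% in Co-H 1 to 3. The groups did not overlap, with means of 0.677% ± 0.0797 and 1.10% ± 0.177 (SD, n = 3 each). The 95% Wilson intervals of these shares, which cover counting error only, have a half-width of at most 0.00589 percentage points. On the TMM-scaled total the summed level was 8594 ± 1165 CPM in Co-L and 11685 ± 1028 CPM in Co-H, a ratio of 1.36 instead of 1.63. The highest Co-L library stood at 9907 CPM and the lowest Co-H library at 10692 CPM, so the groups were apart on this scale too, by a small margin. No p-value is given, as the genes were chosen with results of these data known.

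ENSBTAG00000006769 carried this difference. It took 0.413%, 0.493% and 0.273% of all counts in Co-L 1 to 3, and 0.523%, 0.944% and 0.855% in Co-H 1 to 3. Within the set it held 46.5% of the counts in Co-L 3 and 75.9% in Co-H 2, the extremes over the 6 libraries. The other 32 genes took 0.295%, 0.244% and 0.314% in Co-L and 0.382%, 0.300% and 0.306% in Co-H. Those groups overlapped, and on the TMM-scaled total the other 32 genes stood at 3601 ± 447 CPM in Co-L and 3550 ± 833 CPM in Co-H (SD, n = 3 each).

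**Figure D2:**
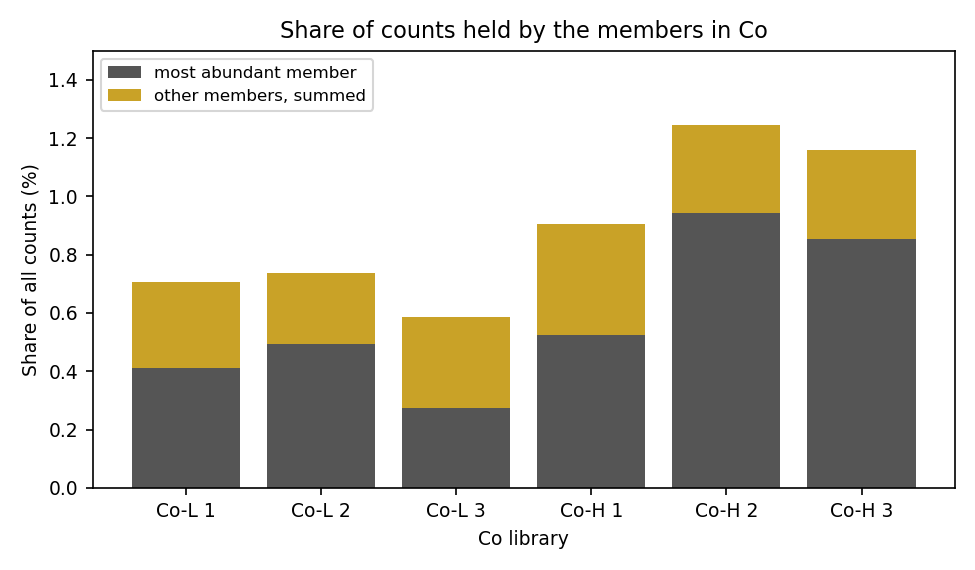
Share of all counts (%) held by the 33 genes in each Co library, with the most abundant gene in grey and the other 32 summed in yellow. The grey part runs from 0.273% in Co-L 3 to 0.944% in Co-H 2, while the yellow part stays between 0.244% and 0.382% in all 6 libraries.

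Gene by gene, few of the 33 differed with fertility beyond the spread between libraries. All 33 passed the filter on low counts, through Co, where the rule required them to be high. The quasi-likelihood test of edgeR, with p-values adjusted over the 14839 genes tested, called 1 of the 33 (3.03%) higher in Co-H and 0 lower. Over all genes tested 4.78% were called, 2.46% higher and 2.32% lower, and over the genes at 10 CPM or more in every Co library 5.96% were. The members' share was thus near the background. An unadjusted p under 0.05 was reached by 6 of the 33 (18.2%), 1 higher and 5 lower, against 28.8% of all genes tested and 33.9% of the genes at 10 CPM or more in every Co library.

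ENSBTAG00000009017, the 9th most abundant, was the gene called. It stood at 95.7, 104 and 75.8 TMM-scaled CPM in Co-L 1 to 3 and at 144, 163 and 165 TMM-scaled CPM in Co-H 1 to 3. Every Co-H library lay above every Co-L library. It rose from 91.9 ± 14.7 to 158 ± 11.6 CPM (SD, n = 3 each). Its log2 change was 0.78 with an SE of 0.14 (adjusted p = 0.0463 in edgeR). The call sat just under the threshold. It was lost in 13 of the 20 other fits, among them those without Co-L 2, Co-L 3, Co-H 2, Co-H 3 or any single T library. The log2 change itself was 0.72 to 1.03 over those fits, with an adjusted p of 7.8e-04 to 0.214.

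For the most abundant gene the test did not pass. ENSBTAG00000006769 stood at 4778, 6626 and 3573 TMM-scaled CPM in Co-L 1 to 3 and at 6180, 9670 and 8556 TMM-scaled CPM in Co-H 1 to 3. Co-H 2 and Co-H 3 were above all Co-L libraries, while Co-H 1 lay below Co-L 2. Its means were 4992 ± 1538 and 8135 ± 1783 CPM (SD, n = 3 each), and the log2 difference was 0.70 with an SE of 0.37 (adjusted p = 0.238 in edgeR). On the unadjusted total, as shares above, the groups of this gene did not overlap.

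The genes nearest to a call in the other direction were not called either. ENSBTAG00000005072 stood at 49.8, 26.6 and 17.5 TMM-scaled CPM in Co-L and at 18.7, 15.2 and 14.2 TMM-scaled CPM in Co-H, in replicate order. Co-L 1 stood well above the rest and Co-L 3 fell within the range of Co-H. Its log2 difference was −0.97 (SE 0.31, edgeR adjusted p = 0.0778), and −0.40 without Co-L 1 (edgeR adjusted p = 0.257). ENSBTAG00000009972 stood at 91.9, 62.2 and 203 TMM-scaled CPM in Co-L and at 67.2, 48.7 and 60.4 TMM-scaled CPM in Co-H. Here Co-L 3 was the high library, and Co-L 2 lay below Co-H 1. Its log2 difference was −1.02 (SE 0.34, edgeR adjusted p = 0.0876), and −0.33 without Co-L 3.

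The libraries of Co-H and Co-L were fully apart for 3 of the 33 genes (9.09%), with Co-H higher for 1 and lower for 2, against 23.1% of all genes tested and 28.4% of those at 10 CPM or more in every Co library. By direction the background was 9.67% higher and 13.5% lower. The higher gene was ENSBTAG00000009017, and the lower ones were ENSBTAG00000008026 and ENSBTAG00000032656, the second most and the least abundant of the set, named after their values were seen. ENSBTAG00000008026 stood at 662, 585 and 737 TMM-scaled CPM in Co-L and at 550, 438 and 260 TMM-scaled CPM in Co-H. Its log2 difference was −0.67 (SE 0.23, edgeR adjusted p = 0.0902), and it was called without Co-H 1 (log2 change −0.84, edgeR adjusted p = 0.0237). On the unadjusted total 8 genes were apart, 7 higher and 1 lower, where 18.0% of all genes tested were higher and 6.13% lower.

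Of the 33 genes 23 (69.7%) had a log2 difference above 0 and 10 below, against 44.8% above 0 over all genes tested. The differences ran from −1.18 to 0.86. Their median was 0.19, against −0.07 over all genes tested and −0.10 over the genes at 10 CPM or more in every Co library. Among the latter, 61 genes stood at 32 times or more their pooled T level, and 31 of these belong to the 33. The median of those 61 was 0.18. As 31 of them belong to the set, this value cannot show whether other genes with a strong bias towards Co shared the shift. Scaling by the unadjusted total moved the median of all genes up by 0.24, and the median of the set lay 0.26 above that of all genes on the TMM scale and 0.24 above it on the unadjusted scale.

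**Figure D3:**
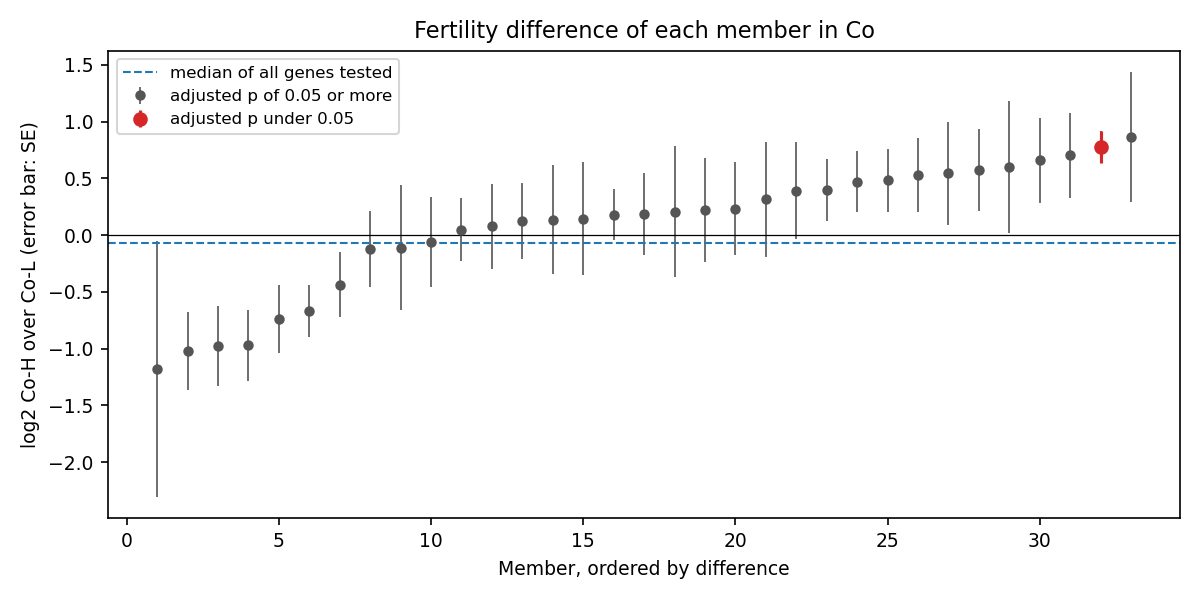
Log2 of Co-H over Co-L with its SE for each of the 33 genes, ordered by size, from the edgeR fit over all 12 libraries. The red point is the gene called at an adjusted p under 0.05, and the dashed line is the median of all genes tested, at −0.07.

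The 33 genes varied more between the Co libraries than most genes at 10 CPM or more in every Co library, a set not matched to them on level. Their coefficient of variation (CV, the SD as a percentage of the mean of TMM-scaled CPM over the 6 Co libraries) had a median of 40.4%, against 19.0% over the 7446 genes at 10 CPM or more in every Co library. Of the 33 genes 31 lay above that median and 18 above the 90th percentile of those genes, 37.3%. The highest library exceeded the lowest by 2-fold or more in 29 genes (87.9%, against 25.9%) and by 4-fold or more in 10 (30.3%, against 2.51%). Without Co-L 3 the median CV was 31.3%, against 16.7%. Leaving out any other Co library gave 38.8% to 43.3%. The 54 genes of the reverse choice had a median CV of 27.9% over the T libraries, against 11.9% over the genes at 10 CPM or more in every T library. These are descriptions, and the difference was not tested.

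**Figure D4:**
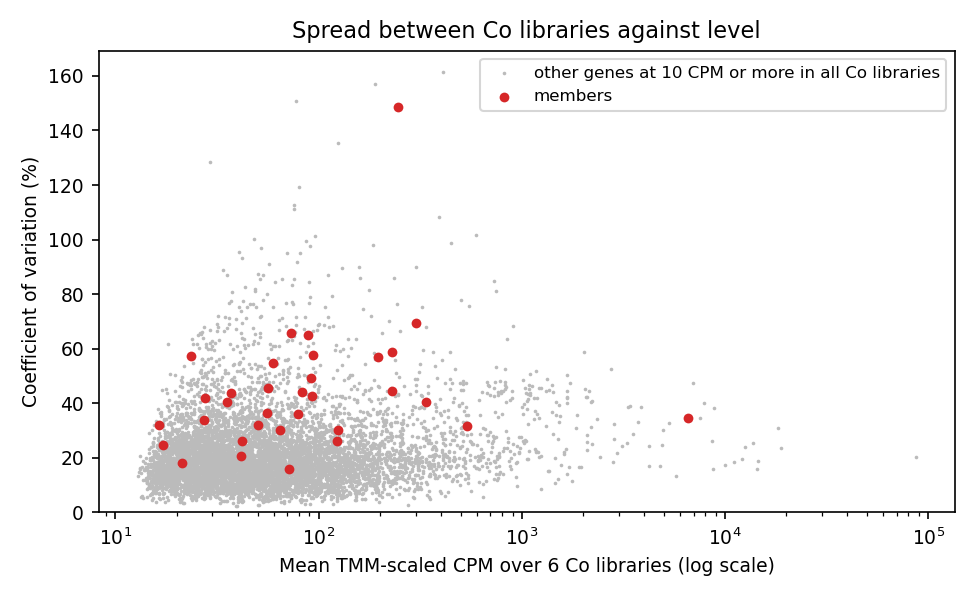
Coefficient of variation (%) over the 6 Co libraries against the mean TMM-scaled CPM (log scale), for the 33 genes in red and the other genes at 10 CPM or more in every Co library in grey. The red points run from 16.0% to 149%, and 31 of 33 lie above the median of 19.0%.

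ENSBTAG00000025775, the 13th most abundant, varied most, with a CV of 149%. It stood at 40.8, 15.6 and 966 TMM-scaled CPM in Co-L 1 to 3 and at 140, 271 and 41.3 TMM-scaled CPM in Co-H 1 to 3. Co-L 3 was 61.8 times Co-L 2, in the same fertility group. Its log2 difference between Co-H and Co-L was −1.18 (SE 1.13, edgeR adjusted p = 0.519), and 2.48 without Co-L 3 (edgeR adjusted p = 0.134), so its direction turned on that library.

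ENSBTAG00000006745, the 4th most abundant, came next with a CV of 69.6%. Its levels were 374, 198 and 69.9 TMM-scaled CPM in Co-L 1 to 3 and 634, 130.0 and 404 TMM-scaled CPM in Co-H 1 to 3. Here Co-L 3 was the lowest library and Co-H 1 the highest, a 9.08-fold range that crossed the fertility groups. At the other end, ENSBTAG00000005425 had a CV of 16.0%, with 70.7, 74.5 and 54.6 TMM-scaled CPM in Co-L and 87.0, 77.1 and 62.4 TMM-scaled CPM in Co-H.

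Co-L 3 marked the extremes most often. It was the lowest Co library for 15 of the 33 genes and the highest for 7. It was thus an extreme for 66.7% of them, against 56.9% of the genes at 10 CPM or more in every Co library. Of those genes 25.9% were lowest and 31.1% highest in Co-L 3. The 33 genes lay a median of −0.38 log2 units from their own median in Co-L 3, against 0.015 for those genes. In Co-L 3 12 genes were 2-fold or more from their own median over the 6 Co libraries, 5 above and 7 below, which is 36.4% against 4.02% of those genes. In each of the other Co libraries 2 or 3 of the 33 genes were that far off. That is 6.06% to 9.09%, against 0.604% to 2.81% of those genes. The share of the 33 was thus the larger in all 6 Co libraries. Co-H 1 was the highest library for 10 of the 33 genes and the lowest for 0, against 14.9% and 5.33% of the comparison genes. Co-H 3, the library labelled corpus luteum, was highest for 4 and lowest for 2, against 12.1% and 27.9% of the comparison genes.

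**Figure D5:**
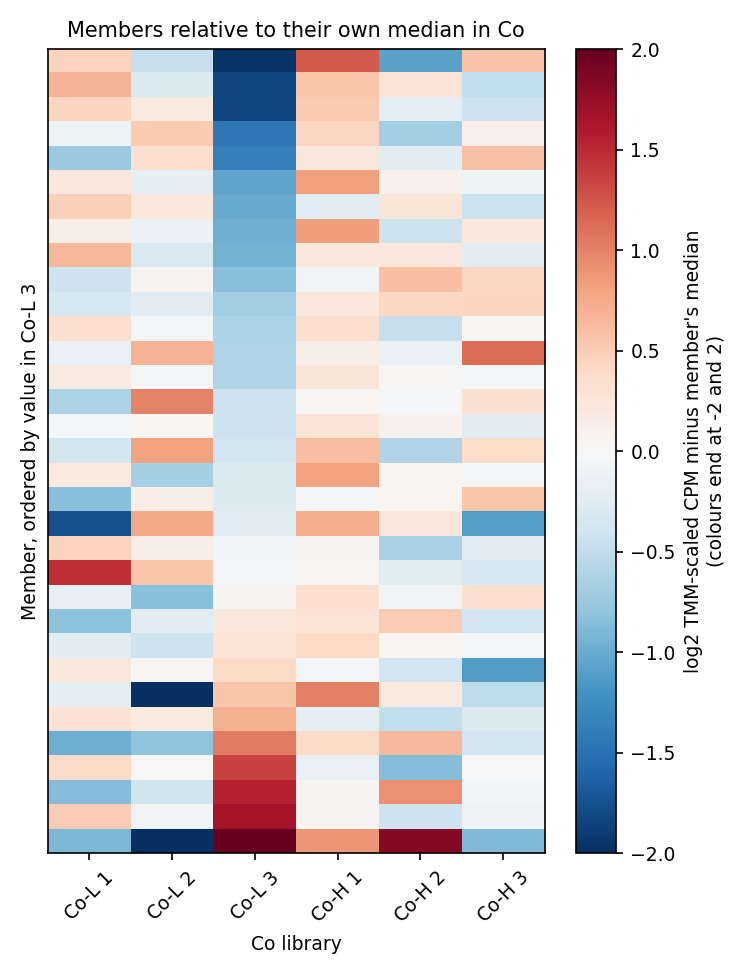
Log2 TMM-scaled CPM of each of the 33 genes minus its own median over the 6 Co libraries, ordered by the value in Co-L 3. Blue is below and red above the median. Co-L 3 holds the most genes far from their own median, with 7 at least 2-fold below and 5 at least 2-fold above.

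The set did not rise and fall as a block. Over the 528 pairs of the 33 genes, Pearson's r of log2 TMM-scaled CPM across the 6 Co libraries had a median of 0.076, against 0.087 between genes at 10 CPM or more in every Co library. An r of 0.8 or more was seen in 8.71% of the pairs, against 11.5%, and an r of −0.8 or less in 2.27%, against 8.73%. With 6 libraries that share their scaling, these values describe the libraries and carry no p. Among the strongest opposed pairs was ENSBTAG00000006769 with ENSBTAG00000009972, at an r of −0.93: the first was lowest and the second highest in Co-L 3.

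In T, where the rule held every gene under 1 CPM, few counts of the set were left. The summed level was 9.01, 7.35 and 6.52 TMM-scaled CPM in T-L 1 to 3 and 5.94, 5.82 and 4.90 TMM-scaled CPM in T-H 1 to 3. The groups did not overlap. Over the 3 libraries of a group the counts were 339 in T-L and 221 in T-H. The pooled CPM was higher in T-L for 25 genes and higher in T-H for 8. Of the set, 7 genes had 0 counts in T-H and only 1 to 10 counts each in T-L. The median log2 ratio of T-H over T-L was −0.67 over the set. Over 530 other tested genes in the same range of pooled CPM in T it was −0.05. The rule did not choose those other genes, and the difference was not tested.

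The rule capped the T values of the set, and its genes passed the count filter through Co. No test or count of calls between T-H and T-L is therefore read for them. A gene with 0 counts over a library can have up to 0.215 to 0.312 CPM there, the level of 3 counts, so lower levels cannot be told from 0 in a single library.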

How the data were processed

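Counts per gene were deposited by the authors as raw read counts, 1 file per library, under cattle gene identifiers per the file headers. Bowtie 0.12.2 is listed for every library, per the submitters' processing notes. They list the cattle build bosTau8 for 7 of the libraries. How reads were counted, on which annotation and with which strand setting and filters, is not stated in the sources used here. Whether counting sheep reads on cattle genes lowered some counts was not tested, and near-identical or overlapping genes cannot be told apart. A blank line in 1 file was skipped, and in 1 file the first gene was read from the header line it ran into.

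Libraries were grouped by their titles. The function filterByExpr with a minimum count of 10 removed genes with few counts and left 14839. All 12 libraries entered 1 model in edgeR 4.0.16 (R 4.3.3) with a mean per group and TMM scaling, and p-values of the quasi-likelihood test were adjusted by Benjamini-Hochberg over all genes tested and called under 0.05. DESeq2 1.42.0 was an alternative. Between replicates of a group the chi-square statistic of the counts per degree of freedom was 18.0 to 135, so each library counted as 1 replicate. Total counts per library set the precision, and 3 counts was taken as the limit that a count of 0 allows.

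The 33 genes, the rule for named genes and the 15 gene lists were chosen with earlier results of these data known. The rule took the most abundant, the most and least variable and those with the smallest p in each direction, with at most 2 per direction because no names could be paired. For lack of names and sequences the lists and the promoter motifs were not analysed here.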

Additional observations from a re-analysis of the deposited data

Results flagged for a closer look

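The summed level of the 33 genes was higher in Co-H than in Co-L and lower in T-H than in T-L. Every Co-H library was above every Co-L library (log2 ratio of the mean TMM-scaled CPM 0.44), and every T-H library was below every T-L library (log2 ratio −0.46). The difference of these log2 ratios, T minus Co, was −0.90. It was not tested. Without ENSBTAG00000006769 the Co groups overlapped. The T values rest on 560 counts in all, and the rule held each gene under 1 CPM there. No opposite response of the set in the tissues is therefore read from these sums.

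ENSBTAG00000009017 lay higher in every Co-H than in every Co-L library, with 5 counts over the T-L libraries and 0 over the T-H libraries. In edgeR the difference between tissues had an adjusted p of 0.257, but its T side rests on those 5 counts, which the rule held under 1 CPM, so this p speaks neither for nor against a difference. Both T levels of this gene, in T-L and in T-H, lie under the level of 3 counts per library. No test for a single library far from its group was run, since the groups hold 3 libraries each.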

How the results depend on the processing

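The median log2 difference of the 33 genes in Co was 0.15 to 0.30 with any one of the 12 libraries left out, and above 0 in all 20 other fits. Counts of calls were far less steady. All genes called numbered 709, and 1290 with unadjusted library totals (1114 higher and 176 lower, 86.4% higher against 51.5%), 2258 in DESeq2, 3 without a count filter, 1 with only the 6 Co libraries, 0 with the replicate block, and 0 to 3110 with one library left out (3110 when Co-H 1 was the one, 1131 for Co-L 1, 7 for Co-L 2, 1 for Co-L 3, 2 for T-L 1 and 0 for each of the rest).

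Of the 33 genes 1 was called, against 2 in DESeq2, 0 without a count filter, 0 with only the 6 Co libraries, 0 with the replicate block, and 0 to 2 with one library left out. At the unadjusted p, 5 to 9 of the 33 were under 0.05 in each of those fits. With the T limit at 2 CPM the set had 43 genes, of which 2 were called, and with it at 0.5 CPM it had 17. With one library left out the rule took 33 to 36 genes. On the unadjusted total 8 instead of 3 genes had groups apart, 7 of them higher in Co-H, where the share of all genes tested that were higher moved from 9.67% to 18.0% and of those lower from 13.5% to 6.13%.

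The share of counts differed by 0.426 percentage points between Co-H and Co-L, by 0.355 to 0.525 with one Co library left out, and by 0.0449 without ENSBTAG00000006769. Without that gene and on the TMM-scaled total the difference was −0.0051, a setting chosen after seeing the data, as was the fit on unadjusted totals. The median CV was 31.3% to 43.3% with one Co library left out. ENSBTAG00000025775 changed sign under the replicate block (log2 1.01) and without Co-L 3 (log2 2.48), with a range of −1.91 to 2.48 over the libraries left out.

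Libraries with the same number were not shown to be paired: their deviations from the group means correlated at 0.16, 0.019 and 0.21 in Co and at −0.093, −0.035 and −0.35 in T, and 2 of the 3 Co-L libraries correlated best with the Co-H library of their number. The replicate block took the calls in Co from 709 to 0. Of the 33 genes 20 kept the sign of their log2 difference in all 21 fits.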

Other observations

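The spread between Co libraries was larger with a stronger bias of a gene towards Co, among the 7446 genes at 10 CPM or more in every Co library. Genes at 0.5 to under 2 times their pooled T level had a median CV of 18.1% (5859 genes). It was 23.4% at 2 to under 8 times (555 genes), 28.1% at 8 to under 32 times (99 genes) and 32.1% at 32 times or more (61 genes, of which 31 belong to the 33). The share of genes whose Co-H and Co-L libraries did not overlap was smaller over the same classes, at 29.0%, 21.8%, 19.2% and 6.56%. The median log2 difference between Co-H and Co-L was −0.10, −0.06, 0.02 and 0.18 over the same classes. Genes lower in Co than in T, under 0.5 times, had a median CV of 20.6% and groups apart in 31.2% (872 genes). Their median log2 difference was −0.19. The classes were formed after the data were seen and the trends were not tested.

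Some of the 33 genes followed each other closely across the 6 Co libraries, although the set as a whole did not. ENSBTAG00000006745 and ENSBTAG00000006991 had a Pearson's r of 0.98, and ENSBTAG00000009017 and ENSBTAG00000032656 had an r of −0.98. These were the extremes of 528 pairs over 6 libraries and are given as values only.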
